A study of Homo sapiens with 4 samples.

Results

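The genes described here encode the BCL2 family, the caspases with their inhibitors, and the death receptors with their adaptors. They were taken by symbol from a list of 35 genes, and all 35 are among the 56303 genes of the deposited count table. RNA sequencing had been done on EJ and T24T, both established human bladder cancer cell lines, transfected with the circular RNA hsa_circ_0008399 (circ) or with the vector alone (vector). The groups are T24T circ, T24T vector, EJ circ and EJ vector, with 1 library each, so no difference within a line has a replicate check. Each line stands for itself, and the labels give no count of cultures behind a library. As background, T24T is a variant of the T24 line, and stocks named EJ have been reported to descend from T24, so the lines may share an origin. The series was designed to find genes that the circular RNA regulates. The circle itself was not analysed here. RBM3, its host gene, was higher in circ by 1.71 ± 0.10 on the log2 scale, a value that cannot separate circular from linear reads.

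Apoptosis is entered by a pair of routes. In the mitochondrial route, BH3-only proteins engage the BCL2 survival proteins or the effectors BAX and BAK1, the outer mitochondrial membrane opens, and released cytochrome c assembles the APAF1 apoptosome that activates caspase-9. In the death-receptor route, a ligand-bound receptor recruits FADD or TRADD and RIPK1, and caspase-8 is activated unless CFLAR, the gene of c-FLIP, restrains it, while BID carries the signal on to mitochondria. In bladder cancer, both routes have been studied as determinants of the response to platinum drugs.

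In the edgeR test of circ against vector over both lines, described below, PMAIP1, BCL2L2 and CASP8 rose and BCL2L1 and TNFRSF1A fell. These are 5 of the 34 members that could be tested (14.7%), against a background of 12.7% of all 17689 tested genes. The share of members that passed was thus near that of genes at large. In the direction of a rise there were 3, against 7.13% of all genes, and in that of a fall 2, against 5.56%. At an unadjusted p under 0.05 stood 26.5% of tested members and 25.8% of all tested genes. Between the lines the members stood further apart than between circ and vector, and so did genes at large. The median absolute log2 fold change was 0.29 between lines and 0.14 with circ for tested members. For all tested genes it was 0.33 and 0.19, so members did not differ more between lines than other genes did. In T24T against EJ, 18 of 34 passed (52.9%), 11 higher and 7 lower in T24T. Of all tested genes 41.4% did (21.9% higher, 19.5% lower). The 5 receptor genes were all among those higher in T24T.

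Of the 5 genes that passed, 4 have an entry in the RefSeq promoter table (28 of the 35 members do). Their starts are printed because they passed the edgeR test of circ against vector, a call that depends on the model, as given below. Each run holds 250 bases before and 50 after the start nearest to the 5′ end of the gene in the count table, build GRCh38.p14, 5′ to 3′ on the gene's own strand. They lie at chr18:59899746-59900045 (plus strand) for PMAIP1, chr2:201233213-201233512 (plus) for CASP8, chr20:31723914-31724213 (minus) for BCL2L1 and chr12:6342027-6342326 (minus) for TNFRSF1A. Capitals mark the letters GGGCGG (GC box), ACGTCA (the core of the cyclic AMP response element) and TATAAA on either strand, none of which overlap here.
PMAIP1: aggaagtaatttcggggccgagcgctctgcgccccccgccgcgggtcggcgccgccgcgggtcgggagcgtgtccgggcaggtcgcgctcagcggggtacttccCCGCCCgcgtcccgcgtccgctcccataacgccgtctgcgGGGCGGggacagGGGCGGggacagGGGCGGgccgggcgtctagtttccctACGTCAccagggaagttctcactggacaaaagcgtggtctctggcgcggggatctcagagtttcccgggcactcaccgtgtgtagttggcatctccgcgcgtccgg
CASP8: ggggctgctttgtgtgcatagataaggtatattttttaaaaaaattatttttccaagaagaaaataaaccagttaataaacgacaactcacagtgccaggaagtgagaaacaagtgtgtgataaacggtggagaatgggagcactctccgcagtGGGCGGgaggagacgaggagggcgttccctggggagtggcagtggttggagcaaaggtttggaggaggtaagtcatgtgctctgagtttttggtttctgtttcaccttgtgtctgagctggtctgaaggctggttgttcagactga
BCL2L1: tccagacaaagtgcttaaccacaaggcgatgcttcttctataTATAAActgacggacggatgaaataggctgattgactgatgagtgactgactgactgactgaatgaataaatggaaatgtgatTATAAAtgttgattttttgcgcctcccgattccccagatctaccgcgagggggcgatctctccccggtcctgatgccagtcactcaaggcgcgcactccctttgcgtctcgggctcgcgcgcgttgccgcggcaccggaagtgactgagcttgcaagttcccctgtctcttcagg
TNFRSF1A: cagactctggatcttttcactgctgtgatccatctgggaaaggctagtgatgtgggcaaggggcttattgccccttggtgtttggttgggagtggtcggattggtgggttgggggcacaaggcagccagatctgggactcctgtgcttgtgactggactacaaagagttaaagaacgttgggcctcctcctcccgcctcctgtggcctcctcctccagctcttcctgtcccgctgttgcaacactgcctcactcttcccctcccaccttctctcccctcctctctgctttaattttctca

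PMAIP1 had 4 GC boxes and 1 ACGTCA, whose first base lies 56 bases before the start. CASP8 had 1 GC box, BCL2L1 had TATAAA at 2 places, 208 and 125 bases before the start, and the TNFRSF1A run held none of these letters. Over all 35116 promoter entries of this length, 45.0% held GGGCGG, 7.98% ACGTCA and 11.5% TATAAA. The full response element TGACGTCA (1.85% of entries), the ATF4 and CHOP composite TGATGNAA (3.62%) and the kappaB consensus (11.3%) were searched on both strands as well and matched none of the 4 runs. The promoter of PMAIP1 was 71.3% G and C, that of TNFRSF1A 55.7%, that of BCL2L1 52.0% and that of CASP8 46.3%, beside a median of 58.7% over all entries. A GC box stood in the printed runs of PMAIP1 and CASP8, which rose, and in neither run of the genes that fell, in a motif that 45.0% of all entries hold. The promoter entries list 3 starts for CASP8 and 2 for BCL2L1, and only the printed start was searched. BCL2L2, which also rose, has no entry, and a link of motif to direction was not tested.

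Library totals lay between 14703455 and 18057768 counts, with 23799 to 25044 genes detected. Members took 0.191% and 0.195% of counts in T24T circ and vector and 0.164% and 0.157% in EJ circ and vector. Reads of mitochondrially encoded genes made up 3.08% in T24T circ and 5.05% in T24T vector, and 4.01% in EJ circ and 5.40% in EJ vector. That share fell with circ in both lines beside all member changes below, and with the 37 mitochondrial genes left out the same number of members was called, 3 higher and 2 lower. Leukocyte markers (5) summed to at most 0.125 CPM (counts relative to the library total) in any library and endothelial markers (4) to at most 0.914, and 4 of the leukocyte markers had no count anywhere. The 5 fibroblast or muscle markers summed to between 5.01 and 7.64 CPM, with 3 of them at 0. Of 9 urothelial differentiation markers, 5 reached 10 counts in a library, UPK3A had none, GATA3 at most 1, and their sum stayed between 7.35 and 9.21 CPM. The keratin genes KRT7, KRT8 and KRT18 carried at least 2164 counts each in every library, while the epithelial markers CDH1 and KRT19 were near absent, with at most 3 and 4 counts. EPCAM had 111 and 117 counts in T24T circ and vector and 4 and 7 in EJ circ and vector, and KRT8 14341 and 13405 in T24T circ and vector and 2164 and 2259 in EJ circ and vector. The 6 epithelial markers summed to 1915 and 1796 CPM in T24T circ and vector and 1018 and 868.0 in EJ circ and vector, and their part in the differences between the lines was not tested. Fewer expressing cells and less RNA per cell cannot be told apart in such bulk libraries.

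Levels are given in CPM scaled by TMM, which corrects each library's total for composition. A log2 fold change carries the standard error of the edgeR quasi-likelihood fit, in which the line is a block and the n is 2 lines. Its adjusted p is Benjamini-Hochberg over all tested genes with a threshold of 0.05. Only 1 residual degree of freedom is left, so the standard error rests mostly on spread pooled over genes.

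Among the BCL2 survival genes, BCL2L1 fell and BCL2L2 rose. BCL2L1 (chromosome 20, 31664452 to 31723989, minus strand, hg38) encodes BCL-XL, which holds BAX, BAK1 and BH3-only proteins in check. It had 250.6 CPM in T24T circ and 306.5 in T24T vector, and 122.4 in EJ circ and 159.5 in EJ vector. The circ library was the lower in each line, while both EJ libraries lay below both T24T libraries. Its log2 fold change was -0.34 ± 0.08 (edgeR adjusted p = 0.00649, n = 2 lines), or 1.26-fold lower in circ, and the log2 ratios of the lines, -0.29 in T24T and -0.38 in EJ, had an SD of 0.06.

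ABALON, a noncoding gene on the opposite strand, shares 43.0% of the BCL2L1 exon bases, which are 74.8% of its own. It had 3259 and 3647 counts in T24T circ and vector and 1396 and 1956 in EJ circ and vector, and its fitted log2 change was -0.31 (edgeR adjusted p = 0.0126). Reads in exons shared by genes were not dropped from the table. Of 89 genes lying wholly inside exons of a well-counted gene on the same strand, 78.7% still had 20 or more counts, as had 82.9% of 234 such genes on the opposite strand. The BCL2L1 and ABALON values therefore cannot be fully told apart. In all, 20 of the 35 members share exon bases with another gene, 13 of them 5% or more of their own, among them BAD (23.7%, with GPR137), DIABLO (19.1%, with RP11-512M8.5), FAS (10.1%, with ACTA2) and APAF1 (9.48%, with ANKS1B). PMAIP1, CASP8 and TNFRSF1A share none.

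BCL2L2 (chromosome 14, 23298790 to 23311759, plus strand) encodes BCL-w, another survival protein. It had 49.4 CPM in T24T circ and 41.2 in T24T vector, and 52.6 in EJ circ and 37.5 in EJ vector. Both circ libraries lay above both vector libraries. Its log2 fold change was 0.37 ± 0.10 (edgeR adjusted p = 0.00903, n = 2 lines), with line ratios of 0.26 in T24T and 0.49 in EJ. The readthrough gene BCL2L2-PABPN1 shares 19.4% of its exon bases on the same strand and rose as well (0.27, edgeR adjusted p = 0.0347), so the share of each in these reads is uncertain.

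MCL1, a short-lived survival protein that BH3-only proteins such as NOXA bind, did not pass. Its 350.3 CPM in T24T circ and 376.9 in T24T vector, and 118.4 in EJ circ and 130.4 in EJ vector, gave -0.12 ± 0.08 (edgeR adjusted p = 0.376). BCL2 itself was low, with 4.74 and 3.61 CPM in T24T circ and vector and 8.68 and 8.93 in EJ circ and vector. Its fold change of 0.13 ± 0.18 did not pass, nor did that of BCL2L13, an atypical member that acts in mitophagy (0.03 ± 0.09). The grouping by role places BCL2L13 with the survival genes, and whether it acts as one in these cells was not tested. Per gene length, in the authors' RPKM, BCL2L1 and MCL1 together made up 92.7% and 94.6% of the sum over BCL2, BCL2L1, BCL2L2 and MCL1 in T24T circ and vector, and 82.8% and 88.9% in EJ circ and vector. The RPKM ratio of BCL2L1 to BCL2L2 was 6.42 in T24T circ and 9.41 in T24T vector, and 2.94 in EJ circ and 5.37 in EJ vector. Its fall with circ follows from the opposite changes of these genes given above and is no further result. Both of its terms include exon bases shared with other genes, ABALON and BCL2L2-PABPN1. BCL2L1, MCL1, BCL2L11 and CFLAR have splice forms with opposed or different roles, and 1 value per gene cannot separate them.

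**Figure D1:**
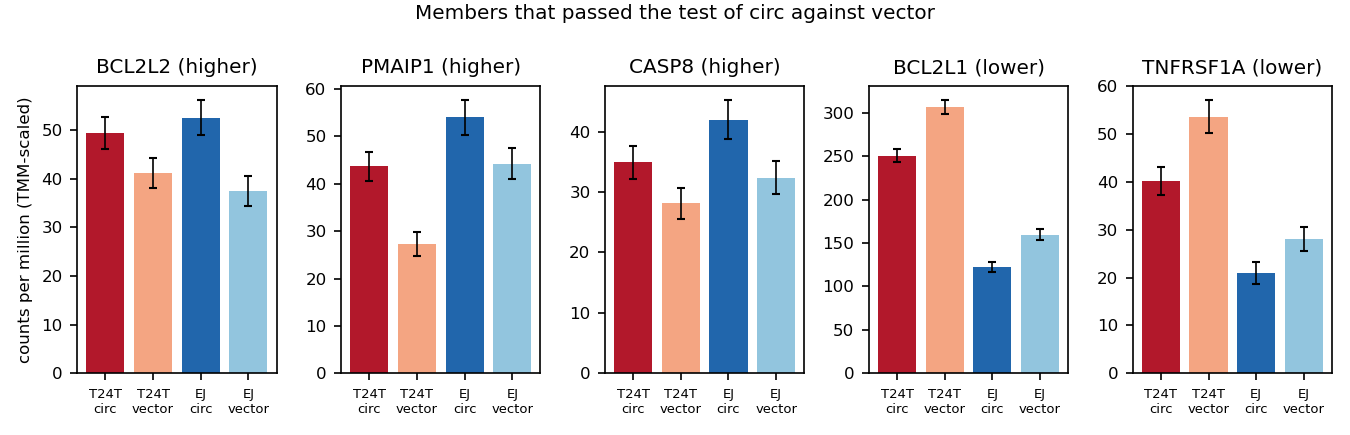
TMM-scaled CPM (vertical axes, from 0) in the 4 libraries for each member that passed the test of circ against vector. Bars are single libraries and error bars are approximate 95% counting error, taken from the square root of the count. For PMAIP1, BCL2L2 and CASP8 the circ bar is the higher in each line, and for BCL2L1 and TNFRSF1A the lower.

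The effectors BAX and BAK1, which form the pore in the outer membrane, did not pass. BAX had 35.7 CPM in T24T circ and 39.8 in T24T vector, and 43.4 in EJ circ and 42.3 in EJ vector (log2 fold change -0.06 ± 0.10, edgeR adjusted p = 0.768). BAK1 had 9.83 and 9.99 in T24T circ and vector and 8.88 and 8.99 in EJ circ and vector (-0.02 ± 0.15, edgeR adjusted p = 0.953). The 95% intervals of the fit ran from -0.26 to 0.14 for BAX and from -0.33 to 0.29 for BAK1, which leaves room for changes of that size.

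Of the 6 BH3-only genes, PMAIP1 alone passed. PMAIP1 (chromosome 18, 59899948 to 59904306, plus strand) encodes NOXA, which binds MCL1 and marks it for degradation. It had 43.7 CPM in T24T circ and 27.3 in T24T vector, and 54.0 in EJ circ and 44.2 in EJ vector. The circ library was the higher in each line, though the T24T circ library lay just below EJ vector. Its log2 fold change was 0.48 ± 0.10 (edgeR adjusted p = 0.00187, n = 2 lines), and by p it ranked 561 among all tested genes, the first of the members.

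The log2 ratio of PMAIP1 was 0.68 in T24T and 0.29 in EJ, that is 1.60-fold in T24T (95% counting interval 1.42 to 1.80) and 1.22-fold in EJ (1.10 to 1.35). These exact binomial intervals cover counting error only and do not overlap, and with 1 library per group the difference between the lines could not be tested against replicates. BBC3, which encodes PUMA, had 21.7 and 22.6 CPM in T24T circ and vector and 11.1 and 14.5 in EJ circ and vector (-0.20 ± 0.13, edgeR adjusted p = 0.342). BCL2L11, which encodes BIM, had log2 ratios of -0.22 in T24T and 0.48 in EJ on 60 to 81 counts per library. BMF, which senses loss of attachment, had 62 and 83 counts in T24T circ and vector and 11 and 20 in EJ circ and vector, and its -0.56 ± 0.28 did not pass (edgeR adjusted p = 0.205). BID (-0.07 ± 0.13), which caspase-8 cleaves, and BAD (-0.05 ± 0.10), which survival kinases silence, stood near 0.

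The genes of the apoptosome and of the proteins released from the intermembrane space did not pass, 0 of 6 in edgeR with 1, HTRA2, at an unadjusted p under 0.05. DESeq2 called 0 of the 4 to which it gave an adjusted p, which leaves out HTRA2 and CASP9. CYCS, the gene of cytochrome c, was at 237.1 and 229.0 CPM in T24T circ and vector and 270.4 and 242.3 in EJ circ and vector (0.10 ± 0.08). DIABLO, whose product SMAC relieves caspases of their inhibitors, had 0.17 ± 0.08, and AIFM1, a flavoprotein that can act on DNA in the nucleus, 0.16 ± 0.08. APAF1 had 0.15 ± 0.13 and CASP9, the initiator of this route, 0.13 ± 0.17. HTRA2, a protease that also binds caspase inhibitors, had the sole negative value, -0.34 ± 0.15 (edgeR adjusted p = 0.126), with 10.5 and 14.5 CPM in T24T circ and vector and 9.08 and 10.4 in EJ circ and vector. Genes on the opposite strand share 20.8% (LOXL3) and 16.1% (AUP1) of the HTRA2 exon bases, and AUP1 rose (0.34, edgeR adjusted p = 0.00726).

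Inhibitors of apoptosis and the other caspases were grouped as shared by both routes, and 0 of these 5 passed in edgeR, 0 at an unadjusted p under 0.05, and 0 in DESeq2. XIAP, which blocks active caspases directly, had 0.16 ± 0.10. BIRC2, the gene of cIAP1, a ubiquitin ligase of the TNF receptor complex, had log2 ratios of -0.03 in T24T and 0.42 in EJ (fitted 0.19 ± 0.12), and the giant ligase gene BIRC6 -0.03 ± 0.10. The initiator caspase gene CASP2 had 0.14 ± 0.11 and the executioner gene CASP6 0.04 ± 0.13.

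**Figure D2:**
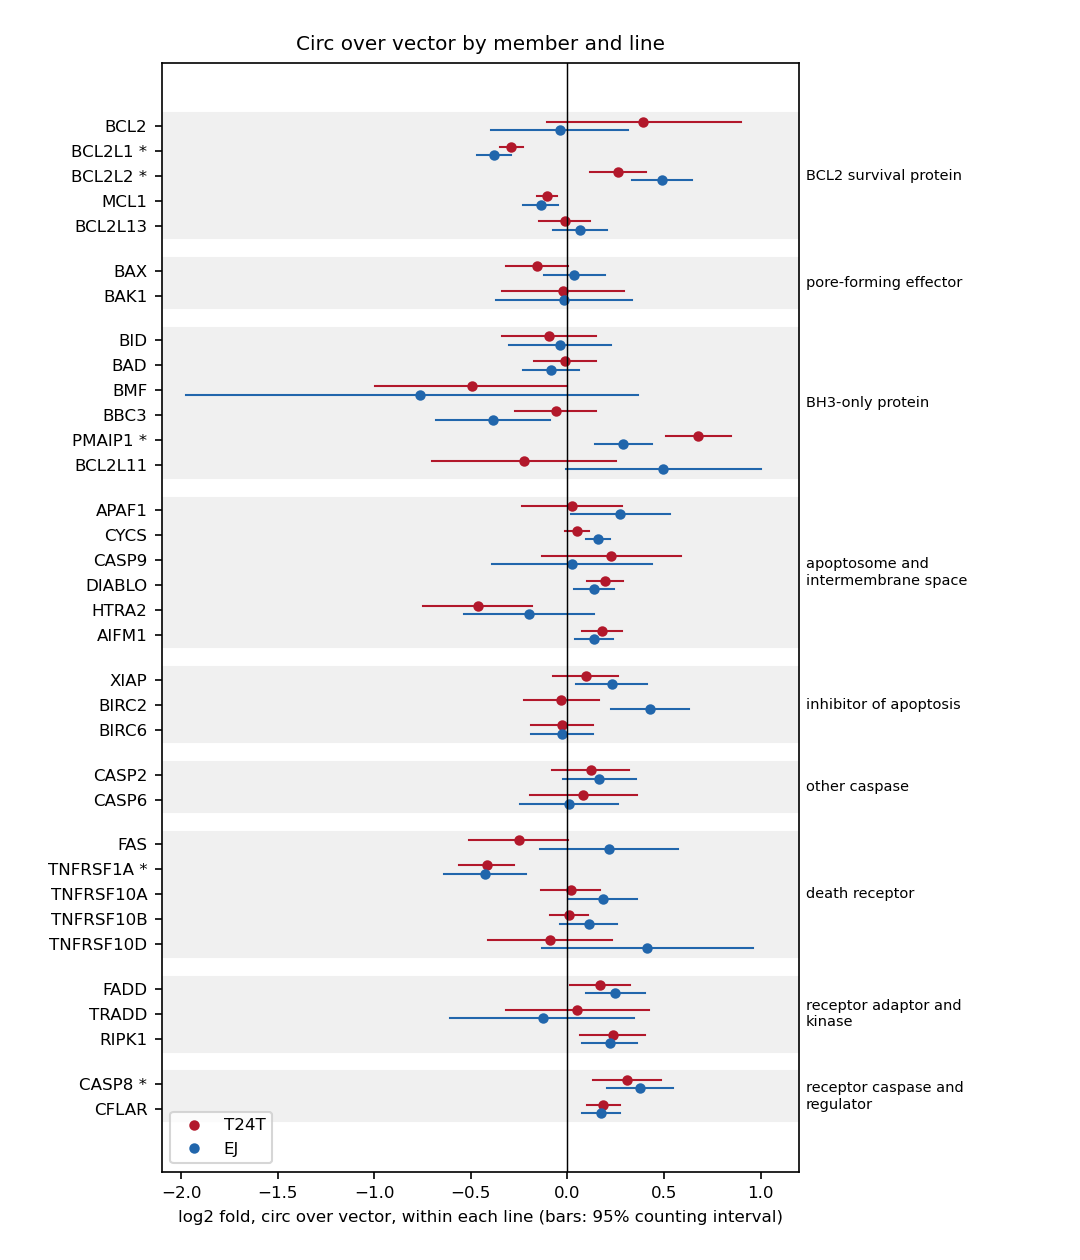
Log2 fold of circ over vector within each line (horizontal axis) for the 34 tested members (rows, by role). Points are single comparisons of 1 circ and 1 vector library in T24T and EJ, bars are exact 95% counting intervals, and asterisks mark the members that passed over both lines. PMAIP1 in T24T lies furthest to the right, and BMF in EJ has the widest interval.

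In the death-receptor route, TNFRSF1A fell and CASP8 rose. TNFRSF1A (chromosome 12, 6328757 to 6342114, minus strand) encodes TNFR1, the main receptor for TNF. It had 40.2 CPM in T24T circ and 53.7 in T24T vector, and 20.9 in EJ circ and 28.1 in EJ vector. The circ library was the lower in each line, and both T24T libraries lay above both EJ libraries. Its log2 fold change was -0.42 ± 0.10 (edgeR adjusted p = 0.00502, n = 2 lines), and the line ratios, -0.42 in T24T and -0.42 in EJ, had an SD of 0.0050, where the median over all tested genes was 0.15. That SD was 0.27 for PMAIP1, 0.16 for BCL2L2 and 0.05 for CASP8. Each SD is taken from 2 values, and the median covers genes with low counts too. The exact counting intervals of the TNFRSF1A folds, 0.677 to 0.827 in T24T and 0.642 to 0.861 in EJ, are far wider than its SD. So close a match is finer than these counts can resolve and is no measure of reproducibility.

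The other receptor genes did not pass. FAS, the receptor for FAS ligand, had 13.5 and 16.1 CPM in T24T circ and vector and 9.35 and 8.05 in EJ circ and vector, ratios of opposite sign and a fitted -0.05 ± 0.15. For the TRAIL receptor genes the fits were 0.10 ± 0.10 for TNFRSF10A and 0.06 ± 0.09 for TNFRSF10B. TNFRSF10D, a decoy receptor without a working death domain, had 0.08 ± 0.18.

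Among adaptors, FADD, which bridges receptor and caspase-8, had 42.2 and 37.6 CPM in T24T circ and vector and 48.3 and 40.6 in EJ circ and vector (0.21 ± 0.10, edgeR adjusted p = 0.163). RIPK1, the kinase that chooses between survival and death at TNFR1, had 0.23 ± 0.10 (edgeR adjusted p = 0.124). Both stood at an unadjusted p under 0.05 and did not pass. TRADD, the adaptor of TNFR1, had -0.02 ± 0.18. RP11-805J14.5, a gene on the opposite strand, lies wholly inside the FADD exons and covers 54.9% of them, with 165 to 182 counts per library.

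CASP8 (chromosome 2, 201233443 to 201287711, plus strand) encodes the initiator caspase of this route. It had 34.9 CPM in T24T circ and 28.2 in T24T vector, and 42.0 in EJ circ and 32.4 in EJ vector. Both circ libraries lay above both vector libraries. Its log2 fold change was 0.34 ± 0.10 (edgeR adjusted p = 0.0235, n = 2 lines), with line ratios of 0.31 in T24T and 0.37 in EJ.

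CFLAR and CASP10 precede CASP8 on the same strand of chromosome 2, at 201116104 to 201176687 and 201182881 to 201229406. CFLAR, the restraint on caspase-8, had 141.5 and 124.5 CPM in T24T circ and vector and 110.2 and 97.8 in EJ circ and vector, and its 0.18 ± 0.08 did not pass (edgeR adjusted p = 0.166). CASP10, a relative of caspase-8, had 4 and 6 counts in T24T circ and vector and 1 and 2 in EJ circ and vector, and was the 1 member below the filter. Its neighbours on either side had at least 468 counts in each library.

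Within T24T, 1 of 34 members differed by 1.5-fold or more, PMAIP1, against 13.8% of all tested genes. In EJ, 1 did, BMF, against 13.3%, and on 11 and 20 counts its interval, 0.255-fold to 1.29-fold, spans 1. Among genes with 50 or more counts in a library of each line, which 33 members are, the background was 6.23% in T24T, with 1 member past the fold, and 5.31% in EJ, with 0. Of the 29 members that did not pass over both lines, 27 had a 95% interval inside 1.5-fold either way and 2 reached beyond, which is 93.1% inside, against 58.6% of all 15443 tested genes that did not pass. These intervals narrow with the count. Signs were shared by the lines in 26 of 34 members (76.5%), 16 higher and 10 lower with circ, against 65.7% of all tested genes. That background includes more genes with low counts, whose signs are less certain, and no share at matched counts was taken. The median log2 fold change of tested members was 0.09, of mitochondrial-route members 0.03, of death-receptor members 0.09 and of all tested genes 0.0018.

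The calls depend on the model. DESeq2 gave the 5 genes log2 changes of the same sign and called 0 of them, with adjusted p from 0.0813 for BCL2L1 to 0.385 for CASP8. It called 0 of the 25 members to which it gave an adjusted p, with 4 of 34 at an unadjusted p under 0.05. Without the block for the line edgeR called 0 members and 0 genes in all, 0 members and 397 genes at an unadjusted p under 0.05.

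Of 66 other genes of the pathway, 51 could be tested, and 6 rose and 4 fell (19.6%, against 12.7% of all tested genes). The rises were those of the neurotrophin receptor gene NGFR (2.13 ± 0.37), TNFAIP3 (1.29 ± 0.11) and TRAF1 (0.74 ± 0.17), which act at TNF receptors, ACIN1 (0.32 ± 0.08), a caspase substrate in chromatin condensation, AIFM2 (0.31 ± 0.10), which protects lipids from oxidation, and DAXX (0.28 ± 0.08), a partner of the FAS receptor that also acts as a histone chaperone. NGFR was low, with 64 and 16 counts in T24T circ and vector and 29 and 5 in EJ circ and vector. The falls were those of the soluble decoy receptor gene TNFRSF11B (-0.79 ± 0.22), TNFSF15 (-0.52 ± 0.13), a TNF family ligand, GSN (-0.39 ± 0.09), which encodes the actin-severing protein gelsolin, and BIRC5 (-0.27 ± 0.08), the gene of survivin. TNFRSF11B rests on T24T, with 100 and 190 counts in circ and vector, where EJ had 23 and 26.

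The second comparison sets T24T against EJ over both transfection states, with the state as a block. Largest of those higher in T24T were BMF (log2 fold change 2.10 ± 0.30, edgeR adjusted p = 7.95e-07), MCL1 (1.55 ± 0.08, edgeR adjusted p = 2.22e-16) and TNFRSF10D (1.32 ± 0.19, edgeR adjusted p = 6.74e-07). MCL1 was thus 2.92-fold higher in T24T, with no overlap between the lines. BCL2L1 was 1.98-fold higher in T24T and BBC3 1.74-fold. BCL2 ran the other way, 2.11-fold lower in T24T (-1.08 ± 0.19, edgeR adjusted p = 1.61e-05), so the survival genes did not share a direction.

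Also lower in T24T were RIPK1 (-0.61 ± 0.10, edgeR adjusted p = 3.90e-06) and PMAIP1 (-0.49 ± 0.10, edgeR adjusted p = 0.000229). RIPK1 had 37.3 and 31.7 CPM in T24T circ and vector against 56.6 and 48.7 in EJ circ and vector, and the lines did not overlap. BAD (-0.46), CASP6 (-0.39), AIFM1 (-0.29) and CASP2 (-0.29) passed as well. Of these 7 genes lower in T24T, PMAIP1 lost its call in edgeR without the block (adjusted p = 0.188), and CASP6, AIFM1 and CASP2 did so there (0.122, 0.175 and 0.209) and in DESeq2 (0.310, 0.104 and 0.338). CASP2 also lost it with 50 counts in each line (edgeR adjusted p = 0.0511) and in limma on RPKM (0.104 with 1 added, 0.0935 with 0.1). BAX, BAK1, BID, BCL2L2, BCL2L11, BCL2L13, FADD, CASP8, the 3 inhibitor of apoptosis genes and every apoptosome gene but AIFM1 did not pass. With library size alone, edgeR called CASP8 (adjusted p = 0.0183), BAX (0.0436) and CYCS (0.0495) lower in T24T, and with RLE scaling CASP8 (0.0444).

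All 5 receptor genes were higher in T24T. Of these, TNFRSF10B, TNFRSF10D and TNFRSF10A are neighbours on the minus strand of chromosome 8, from 23020133 to 23225126, so the 5 are not separate loci. TNFRSF10B, the gene of the TRAIL receptor DR5, had 1760 and 1661 counts in T24T circ and vector against 752 and 745 in EJ circ and vector (1.05 ± 0.09, edgeR adjusted p = 1.32e-11). TNFRSF10D had 9.31 and 9.93 CPM in T24T circ and vector against 4.41 and 3.31 in EJ circ and vector. TNFRSF1A (0.94 ± 0.10) and FAS (0.77 ± 0.15) were the next in size. TNFRSF10A (0.27 ± 0.10, edgeR adjusted p = 0.0332) was the closest of the 18 to the threshold, losing its call in DESeq2 (adjusted p = 0.388), with library size alone (0.110), with no filter (0.0868), in limma on log2(RPKM + 1) (0.157) and log2(RPKM + 0.1) (0.151), and in edgeR without the block (0.229). TRADD (0.57 ± 0.18) and CFLAR (0.35 ± 0.08) were higher in T24T too, and both lost their calls in edgeR without the block (adjusted p = 0.0808 for TRADD and 0.114 for CFLAR) and in limma on RPKM (0.0649 and 0.108 with 1 added, 0.0593 and 0.0985 with 0.1), TRADD also in DESeq2 (0.350). In all, 7 of the 18 lost their call in at least 1 alternative and 11 in none that gave an adjusted p. The ligand gene TNF, not among the 35, had 1016 and 1155 counts in T24T circ and vector against 41 and 37 in EJ circ and vector, while with circ it did not pass (-0.18 ± 0.13, edgeR adjusted p = 0.398).

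**Figure D3:**
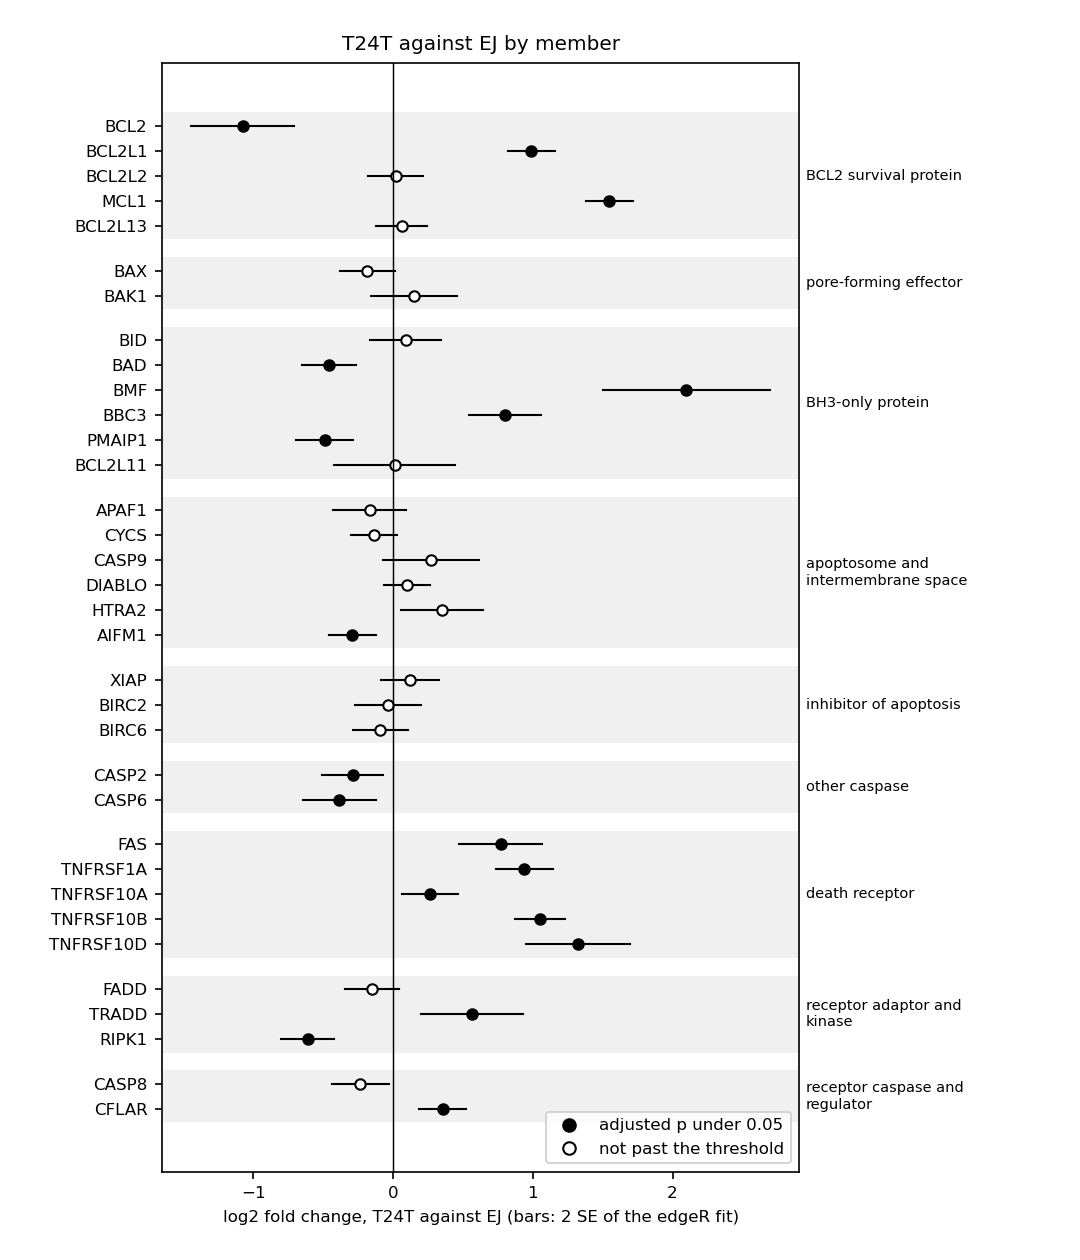
Log2 fold change of T24T against EJ (horizontal axis) for the 34 tested members (rows, by role), with bars of 2 standard errors of the edgeR fit and filled points for an adjusted p under 0.05. The 5 receptor genes are all filled and right of 0, while BCL2 (-1.08) and MCL1 (1.55) lie on opposite sides.

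Levels per gene length, in the authors' RPKM, spanned a wide range within each role. In T24T vector BCL2L1 stood at 91.1, MCL1 at 85.0, BCL2L2 at 9.68, BCL2L13 at 7.21 and BCL2 at 0.302. In EJ vector the order was BCL2L1 at 49.3, MCL1 at 30.6, BCL2L2 at 9.17, BCL2L13 at 6.99 and BCL2 at 0.777. BCL2L2 and BCL2L13 did not differ between the lines beyond the test's threshold.

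Among BH3-only genes BAD was highest in every library, at 21.1 and 21.7 RPKM in T24T circ and vector and 29.8 and 31.8 in EJ circ and vector, followed by PMAIP1. BMF and BCL2L11 stayed below 1 RPKM throughout. Of the 5 receptors TNFRSF10B was highest in T24T (18.9 in circ, 19.1 in vector) and TNFRSF10A in EJ (12.5 in circ, 11.1 in vector). FADD was the highest gene of the receptor route in every library, at 22.2 and 20.1 in T24T circ and vector and 26.7 and 22.6 in EJ circ and vector.

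**Figure D4:**
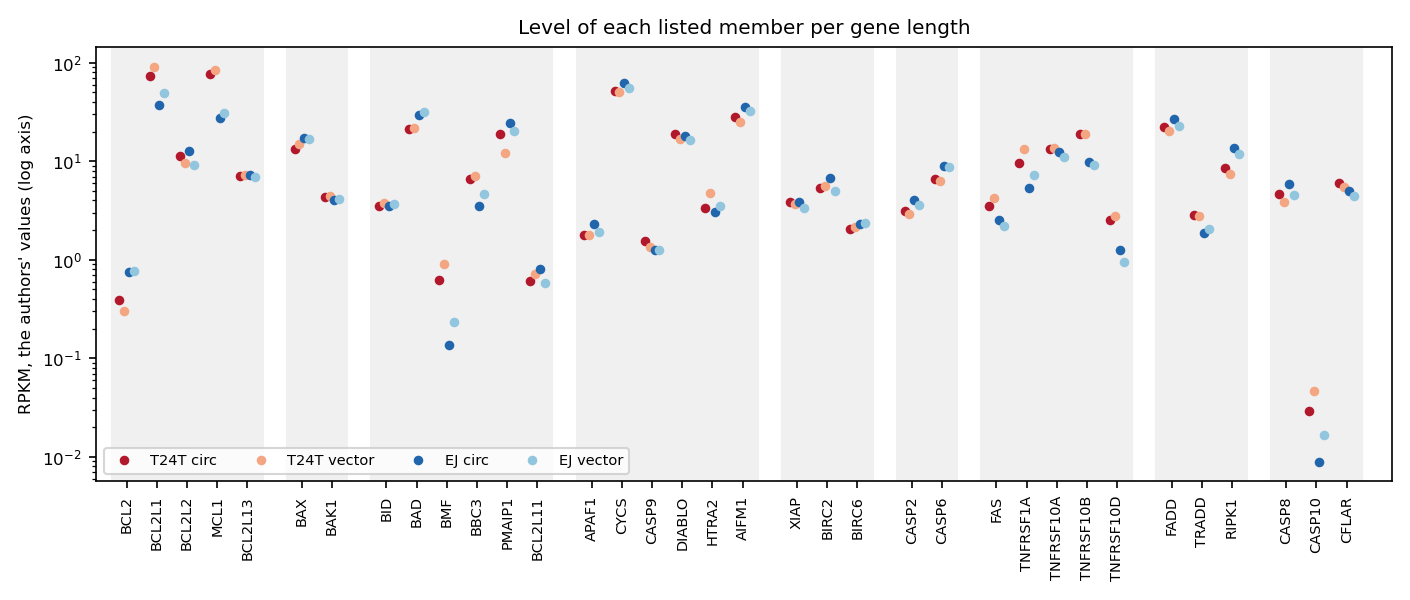
RPKM as deposited (vertical log axis) of all 35 members by role (grey bands), with 1 point for each library. BCL2L1 and MCL1 lead the survival genes in all 4 libraries, and CASP10 lies below 0.05 RPKM in each.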

How the data were processed

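The authors deposited whole-number read counts for 56303 genes and RPKM values for 29817 of them, the count divided by gene length and library total (100% of values within a relative tolerance of 1e-06). Trimmomatic, HISAT2 and hg38 are named in the submitters' processing notes, and the counting tool, annotation and strand use are not given in the sources used here. All 4 columns were matched by the samples' descriptions, where T24T reads T24.

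Genes with 10 or more counts in a library and 20 or more over the 4 were kept (17689). The counts were fitted with edgeR 4.0.16 (R 4.3.3), TMM scaling and quasi-likelihood tests, with line and transfection as terms, the lines pairing the libraries by their labels. The standard error is the log2 fold change over the root of F. The fit had 30.5 prior degrees of freedom and a common biological coefficient of variation of 0.0704. P-values measure only the spread between these libraries. With 1 residual degree of freedom, that spread is mostly the one pooled over genes. Within a line, log2 ratios used a prior count of 2, and folds have exact binomial 95% intervals.

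The members and gene lists were chosen with earlier results of these data known. All 35 are described, those that passed and the 3 largest per direction between lines in full, with pathway genes that passed and overlapping genes. RBM3, KRT7, KRT8, KRT18, KRT19, CDH1, EPCAM, TNF, BIRC3 and NAIP were named after their values were seen. Alternatives used DESeq2 1.42.0, limma 3.58.1, other scalings, filters, prior counts and RPKM.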

Additional observations from a re-analysis of the deposited data

How the results depend on the processing

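In limma-voom, and in edgeR without mitochondrial genes, with a minimum of 50 counts in each line or no filter, or with scaling by RLE or by library totals, the members counted stayed at 3 higher and 2 lower with circ. DESeq2 called 181 genes higher and 153 lower with circ, 0 of the 25 members with an adjusted p in either direction, and 1 higher and 0 lower of the other pathway genes. Limma on log2(RPKM + 1) and on log2(RPKM + 0.1) and edgeR with no replicate block called 0 in all of these counts (5, 5 and 0 members at an unadjusted p under 0.05). In T24T against EJ, DESeq2 called 1776 genes higher and 1441 lower, and 9 members higher and 4 lower. Limma on log2(RPKM + 1) called 2492 genes higher and 2585 lower, and 8 members higher and 6 lower. The fit with no block called 1944 genes higher and 1248 lower, and 8 members higher and 3 lower. Genes past 1.5-fold in EJ numbered 2352, but 8129 with no filter, 662 of 12463 with 50 counts in each line, 1222 with a prior count of 10, 566 on log2(RPKM + 1), and 677 at 2-fold. The corresponding numbers in T24T were 2449, 5351, 777, 1459, 754 and 692. The 1 member past the fold in EJ was 0 with 50 counts, a prior count of 10, either RPKM scale or 2-fold, and the 1 in T24T was 0 at 2-fold. The causes were not tested. Leaving out a line leaves no residual degree of freedom, so those values carry no test, and none of the called members changed sign in them. Counts under 100 in BMF, BCL2L11 and CASP10 limit what could be detected there.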
